A study of Mus musculus with 11 samples.

Results

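Retinal ganglion cells are the output neurons of the retina, and 10 genes that mark them were followed in the mouse eye with and without miR-211. They were chosen by name as listed ganglion cell genes (Rbpms, Pou4f1, Pou4f2, Pou4f3, Nefl, Nefm, Nefh, Slc17a6, Sncg and Thy1), and each symbol matched 1 gene identifier among the 38393 genes listed. RNA-seq had been carried out on the eye after the lens and cornea were taken away, so that retina, retinal pigment epithelium, choroid, sclera and ciliary body stayed together in each sample. There were 5 wild type libraries (WT) and 6 miR-211−/− libraries (KO), all on the C57BL/6 background. KO mice were 1–2 months old. KO mice lacked the segment with pre-miR-211 in every cell, so the model is not restricted to ganglion cells. All KO animals were male, whereas the WT group held 2 males and 3 females, so that genotype and sex cannot be fully told apart. RNA of the whole posterior eye was measured, and fewer ganglion cells and less RNA per ganglion cell cannot be told apart in it.

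Ganglion cells lie in the innermost layer of the retina and send their axons through the optic nerve to the brain. POU4F factors drive their differentiation, survival and axon growth, neurofilaments build the axon, and the vesicular glutamate transporter encoded by Slc17a6 loads their synaptic vesicles with transmitter. They are a small minority of retinal neurons next to rods, and most of these genes are used to find and count them.

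The miRNA removed in KO and its closest relative are given first, because they share the seed that pairs with targets. Mature miR-211-5p lies at chr7:64205831-64205852 on the plus strand and mature miR-204-5p at chr19:22750610-22750631 on the plus strand (RefSeq, GRCm38.p6). Capitals mark the seed, bases 2 to 8.
miR-211-5p: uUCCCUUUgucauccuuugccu
miR-204-5p: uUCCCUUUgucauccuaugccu
Counted from 1 at the 5′ end, they differ by U17A, outside the seed. The letters AAAGGGA, which pair with the seed, were searched in the longest annotated 3′ untranslated stretch of each gene (Gencode M21, GRCm38). They occurred in 2 of the 10 ganglion cell genes and in 16.5% of the 14558 tested genes with such a stretch. The 2 sites are shown with their flanks, with the match in capitals. The Slc17a6 match is at chr7:51670022-51670028 on the plus strand and the Pou4f1 match at chr14:104461897-104461903 on the minus strand.
Slc17a6: atgagagcttgtAAAGGGAggggt
Pou4f1: gagcagaataagAAAGGGAaaacg
These letters are a description of the sequence and not a measured target site.

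The upstream sequences of Pou4f1 and Pou4f2 are shown because these factors lay far below the other libraries in WT replicate 1. Each run is the 250 bases before the RefSeq start (GRCm38.p6), at chr14:104468000-104468249 for Pou4f1 and chr8:78436648-78436897 for Pou4f2, both on the minus strand. Capitals mark GGGCGG (the GC box) and CANNTG (the E box), searched on both strands.
Pou4f1: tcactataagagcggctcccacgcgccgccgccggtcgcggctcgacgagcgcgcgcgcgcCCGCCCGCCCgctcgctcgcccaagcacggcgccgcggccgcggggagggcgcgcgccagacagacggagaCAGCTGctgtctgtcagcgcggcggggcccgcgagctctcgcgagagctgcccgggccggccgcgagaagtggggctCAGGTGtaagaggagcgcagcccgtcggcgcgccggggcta
Pou4f2: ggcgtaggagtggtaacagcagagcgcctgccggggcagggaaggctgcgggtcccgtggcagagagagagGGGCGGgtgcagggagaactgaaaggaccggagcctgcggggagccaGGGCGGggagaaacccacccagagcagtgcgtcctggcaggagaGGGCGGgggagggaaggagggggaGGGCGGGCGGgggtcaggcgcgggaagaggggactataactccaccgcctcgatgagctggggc
Pou4f1 held 2 overlapping GC boxes and 2 E boxes, and Pou4f2 held 5 GC boxes, of which 2 overlapped, and no E box. A GC box was present in 32.7% and an E box in 66.2% of the 32851 upstream stretches of the same length. Neither stretch held TATAAA, present in 12.4% of all stretches, or TAATTA, present in 4.84%.

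Each library held between 20282279 and 36317730 expected counts, so that 1 CPM, a count scaled to the library total, stood for 20.3 read pairs in the shallowest. CPM below are also scaled by TMM factors, and log2 fold changes are KO over WT from edgeR's likelihood-ratio test. Trpm1, the host gene of miR-211, ran from 330.7 to 495.6 CPM over the 11 libraries, and miR-211 itself had a count of 0 in all 11, so the deletion could not be checked in these libraries. Xist was at 796 to 1636 CPM in WT replicates 1, 3 and 5 and at most 1.30 CPM in the rest, and it was the 1 gene of 15767 called in the comparison of genotypes (adjusted p under 0.1, edgeR likelihood-ratio test).

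WT replicate 1 stood apart in these same 10 genes. All 10 ganglion cell genes were lowest in this library, beside 22.1% of all tested genes. In 8 of the 10 the level was at or under 50% of the lowest other library, beside 0.501% of all tested genes. No other library held the lowest value of any of the 10. The 10 genes were chosen with earlier results of these data known, so these shares are a description and no test. Comparisons between genotypes are therefore given with and without this library.

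POU4F transcription factors lay furthest below the other libraries in WT replicate 1. Pou4f1 (chr14:104461676-104467999), which acts in ganglion cell maturation, was at 2.02, 13.4, 17.3, 14.3 and 16.2 CPM in WT replicates 1 to 5, and in KO it ran from 12.4 to 17.9 CPM with a median of 14.8 CPM. Pou4f2 (chr8:78433010-78436645), which is needed for ganglion cell differentiation and survival, was at 1.03, 4.96, 7.60, 5.42 and 6.47 CPM in WT and from 4.53 to 9.87 CPM in KO, with a median of 6.17 CPM. Pou4f3, the third member of the family, was at 0.390, 3.24, 3.50, 2.76 and 3.03 CPM in WT and from 2.31 to 4.76 CPM in KO, with a median of 3.14 CPM. WT replicates 2 to 5 lay inside the KO range for all 3 factors, and WT replicate 1 lay far beneath both groups. As a share of the median of the other 10 libraries, WT replicate 1 held 13.3% of Pou4f1, 17.3% of Pou4f2 and 12.5% of Pou4f3. Behind these values were 57 expected counts for Pou4f1, 29 for Pou4f2 and 11 for Pou4f3 in that library.

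Neurofilament genes, which encode the intermediate filaments of large axons, followed the same pattern at higher levels. Nefl, the light chain, was at 58.1, 273.3, 363.4, 275.0 and 333.5 CPM in WT and from 258.7 to 393.8 CPM in KO, with a median of 305.6 CPM. Nefm, the medium chain, was at 24.8, 97.9, 125.1, 97.7 and 109.4 CPM in WT and from 93.7 to 135.7 CPM in KO, with a median of 101.5 CPM. Nefh, the heavy chain, was at 29.8, 66.6, 81.3, 72.8 and 80.8 CPM in WT and from 62.9 to 101.2 CPM in KO, with a median of 70.2 CPM. WT replicate 1 held 19.03% of Nefl, 24.5% of Nefm and 41.3% of Nefh relative to the median of the other 10, so the heavy chain was less far below the rest than the light and medium chains. In the annotation Nefl (chr14:68083863-68089095, plus strand) lies within the span of Nefm (chr14:68082590-68124846, minus strand). Where transcripts of the 2 genes overlap, reads counted without strand could be shared between them, and Nefh (chr11:4938754-4948064) has no such overlap with either.

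Slc17a6 (chr7:51622006-51671119), the transporter that fills ganglion cell vesicles with glutamate, was at 9.22, 39.4, 53.7, 35.5 and 45.4 CPM in WT and from 36.5 to 55.4 CPM in KO, with a median of 42.5 CPM. Sncg (chr14:34370274-34374789), which encodes gamma-synuclein, was at 16.5, 51.0, 59.4, 41.5 and 49.7 CPM in WT and from 45.3 to 62.6 CPM in KO, with a median of 53.0 CPM. For both genes the KO range covered most of the WT values other than replicate 1, which held 21.7% of the Slc17a6 level and 32.6% of the Sncg level of the other libraries. Thy1 (chr9:44043384-44048579), a cell surface glycoprotein also found on fibroblasts and T cells, was at 62.2, 104.0, 122.3, 97.6 and 117.0 CPM in WT and from 93.6 to 138.0 CPM in KO, with a median of 109.4 CPM. Rbpms (chr8:33782643-33929863), an RNA-binding protein used to count ganglion cells and also made by smooth muscle, was at 19.3, 27.1, 31.3, 27.7 and 29.4 CPM in WT and from 25.6 to 33.0 CPM in KO, with a median of 28.9 CPM. Among the listed ganglion cell genes, Thy1 and Rbpms kept the largest shares in WT replicate 1, at 56.6% and 67.0%. Whether their expression in other cell types had a part in this was not tested. Sncg, which fat also expresses, held 32.6%.

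**Figure D1:**
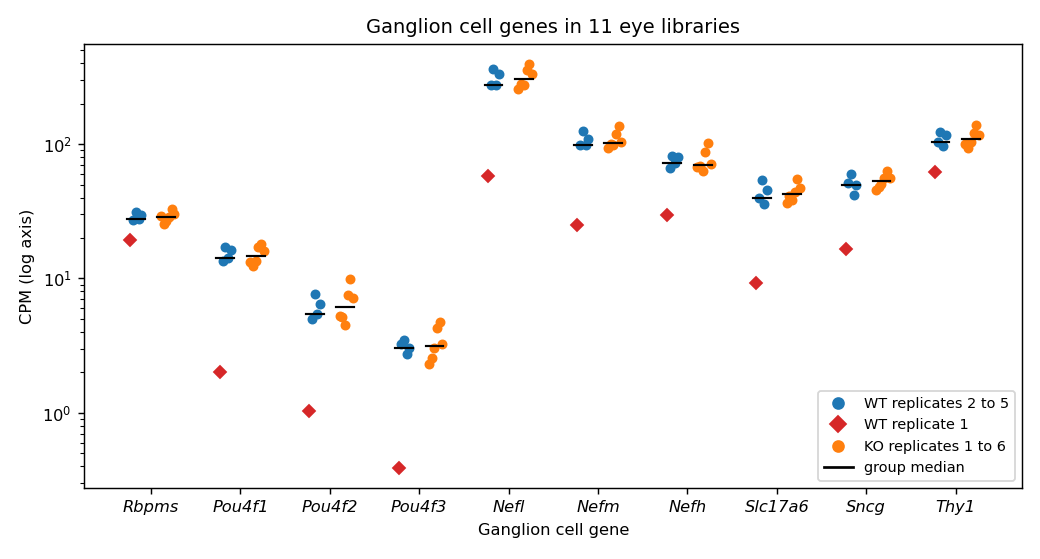
CPM on a log axis of each ganglion cell gene in the 5 WT and 6 KO libraries, 1 point per library, with the group median as a bar. WT replicate 1 (diamond) is the lowest point of all 10 genes, while WT replicates 2 to 5 and the KO libraries overlap in every gene.

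No ganglion cell gene passed the test between genotypes. Of the 10, 0 were called, beside 0.00634% of all tested genes, and 0 had an unadjusted p under 0.05, beside 2.09% of all tested genes. edgeR's quasi-likelihood test, DESeq2 and limma on FPKM also called 0 of the 10. Their log2 fold changes were 0.10 for Rbpms, 0.15 for Thy1, 0.21 for Nefh, 0.25 for both Pou4f1 and Nefm, 0.26 for Slc17a6, 0.27 for Nefl, 0.28 for Sncg, 0.37 for Pou4f2 and 0.38 for Pou4f3. The median was 0.26, beside 0.003 over all tested genes. The exact permutation test of log2 CPM (two-sided, 5 WT against 6 KO) gave p from 0.199 for Sncg to 0.452 for Rbpms, where 0.00216 is the smallest p possible.

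Most of the excess in KO was gone without WT replicate 1. The fit of all other libraries together had genotype as its only term. In it the median log2 fold change of the 10 genes was 0.02, and the values ran from -0.02 for Pou4f1 to 0.10 for Pou4f3. Again 0 genes were called, beside 0.00637% of all tested genes, and 0 had an unadjusted p under 0.05, beside 1.03%. The exact permutation test on 4 WT and 6 KO libraries gave p from 0.543 to 0.986 (two-sided, smallest possible p 0.00476). WT and KO means were then 15.3 ± 1.76 and 15.1 ± 2.32 CPM for Pou4f1 (SD, n = 4 and 6), 311.3 ± 44.6 and 315.4 ± 53.7 CPM for Nefl, and 28.9 ± 1.88 and 28.9 ± 2.60 CPM for Rbpms. With all 5 WT libraries, the WT mean was 12.6 ± 6.13 CPM for Pou4f1 and 260.7 ± 119.6 CPM for Nefl (SD, n = 5). With WT replicate 1 left out and the library series (described below) as a covariate, the median log2 fold change was 0.09. All 10 genes were then higher in KO, and none was called.

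These data bound the size of a difference rather than show that there is none. Without WT replicate 1, the 95% interval of the KO over WT ratio ran from 0.862 to 1.16 for Rbpms, from 0.845 to 1.22 for Thy1, from 0.797 to 1.22 for Pou4f1, from 0.814 to 1.25 for Slc17a6 and from 0.800 to 1.28 for Nefl. It was wider for the low genes, from 0.761 to 1.51 for Pou4f2 and from 0.772 to 1.49 for Pou4f3. With all 11 libraries the upper bound was higher, at 1.29 for Rbpms, 2.04 for Pou4f1, 2.22 for Pou4f2 and 2.32 for Pou4f3. Among the genes named here, the lower bound was then lower for Pou4f1 (0.697), Nefl (0.745), Slc17a6 (0.762), Pou4f2 (0.747) and Pou4f3 (0.733). It was higher for Rbpms (0.891) and Thy1 (0.876). WT replicate 1 was set aside after its low values in these same genes were seen, so the narrower intervals hold only without it. All of these intervals are from fits without a term for the library series.

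**Figure D2:**
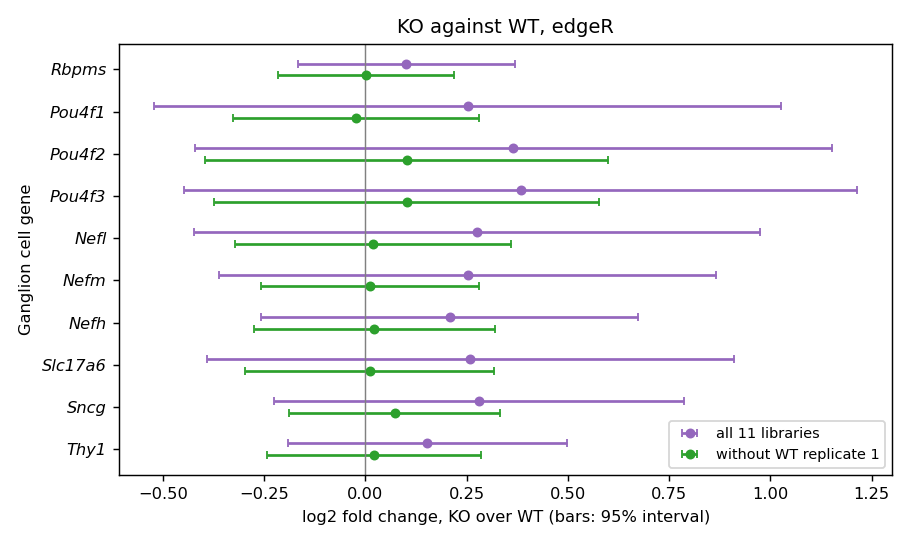
Log2 fold change of KO over WT for each ganglion cell gene from edgeR, with 95% intervals, for all 11 libraries and for the 10 libraries left without WT replicate 1. With all libraries the values lie between 0.10 and 0.38, and without that library they lie between -0.02 and 0.10, and every interval covers 0. Neither fit has a term for the library series described below.

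The libraries were named in 2 ways in a supplementary count table. One series was named by mouse number (WT replicates 1 and 2, KO replicates 1 to 3) and the other by age (WT replicates 3 to 5, KO replicates 4 to 6). Summed over the 10 genes, the levels were 651.4 to 680.8 CPM in the first series apart from WT replicate 1, at 223.4 CPM. In the second series they were 670.4 to 864.9 CPM in WT and 783.3 to 952.3 CPM in KO. Fitted within the series named by mouse number, the log2 fold changes ran from 0.23 to 0.76, and within the series named by age, which does not hold WT replicate 1, from 0.06 to 0.41, with all 10 higher in KO and no gene of the 10 called in either (edgeR likelihood-ratio test, lowest adjusted p 0.999). With the series as a covariate and WT replicate 1 left out, they ran from 0.04 to 0.22, with all 10 higher in KO and again none called (lowest adjusted p 1.00). KO replicate 5 held the highest value of all 10 genes, and the share of all tested genes highest there was not counted. Summed markers of amacrine and horizontal cells were highest there too, and 14.4% of all tested genes were lowest there. Without KO replicate 5, and with WT replicate 1 kept, the log2 fold changes of the 10 genes ran from 0.06 to 0.26.

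Other ganglion cell genes lay low in the same library. Of 18 further genes 17 were tested and 0 were called. Their log2 fold changes had a median of 0.17, and 0.04 when WT replicate 1 was left out. In that library 14 of the 17 were lowest of all. Isl2, a homeodomain factor of ganglion cells, was at 0.497 CPM there and at 1.61 to 4.52 CPM elsewhere, Nrn1, which encodes neuritin, at 5.50 against 24.7 to 35.2 CPM, and Chrna6, an acetylcholine receptor subunit, at 29.6 against 70.4 to 107.8 CPM. Gap43, the growth cone protein, was not low, at 21.1 CPM against 17.5 to 24.3 CPM. Uchl1 and Chrna6 were the most abundant of this list, with log2 fold changes of 0.04 and 0.26. Atoh7, the factor that starts ganglion cell development in the embryo, did not pass the filter, with at most 0.130 CPM.

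Genes of single ganglion cell types behaved unequally. All 16 were tested and 0 were called (median log2 fold change -0.02, and -0.08 without WT replicate 1). In WT replicate 1, 9 were lowest of all 11 libraries and 2 highest. Opn4, the melanopsin of intrinsically photosensitive ganglion cells, was at 3.48 CPM there and at 4.18 to 6.57 CPM elsewhere, or 63.2% of the median of the other libraries, a larger share than the POU4F factors held. Spp1, osteopontin of alpha ganglion cells and also of macrophages, was at 137.7 CPM there and at 29.5 to 52.6 CPM elsewhere. Kcng4, another alpha ganglion cell gene, was at 31.8 against 16.8 to 26.5 CPM. Spp1 (log2 fold change -0.90, and -0.40 without WT replicate 1) and Cartpt, a peptide of direction-selective ganglion cells (0.30 and 0.29), were the list's only genes with an unadjusted p under 0.05, and both had an adjusted p of 1.00 (edgeR likelihood-ratio test). Pvalb, also a skeletal muscle gene, and Jam2 were its most abundant genes.

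Most tested genes of axon injury and neuronal stress were higher in WT replicate 1, by unequal amounts. Of 12 listed 9 were tested and 0 were called (median log2 fold change -0.24, and -0.01 without that library). There 6 of the 9 were above all other libraries, and the share of all tested genes highest there was not counted. Of these 6, Ddit3 was at 38.1 against 30.2 to 36.6 CPM and Bbc3 at 3.72 against 1.76 to 3.50 CPM, only slightly above the rest. Bcl2l11 was inside the range of the others, at 17.8 against 15.4 to 22.8 CPM. Atf3, a transcription factor induced after axon injury, was at 19.9 CPM against 4.45 to 10.4 CPM in the other 10. Jun, its partner, was at 73.9 against 44.3 to 52.5 CPM, and Sprr1a, a protein made in injured neurons and in epithelia, at 12.1 against 0.197 to 4.67 CPM. Ecel1 and Gal did not pass the filter, and they were at 6.95 and 2.09 CPM in WT replicate 1 against at most 0.739 and 0.708 CPM. Sox11, a factor of axon growth that did not pass the filter either, was at 0.639 CPM there, inside the 0.220 to 1.06 CPM of the other libraries. Hspb1, the most abundant gene of the list, was highest in WT replicate 4, at 545.4 CPM, where lens markers were highest too.

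Summed markers of other retinal neurons were less low in WT replicate 1 than the 10 ganglion cell genes. The 10 ganglion cell genes summed to 30.5% of the median of the other libraries there, beside 78.0% for 10 amacrine cell markers, 86.9% for 4 horizontal cell markers and 70.6% for 7 rod markers. The 18 further ganglion cell genes summed to 55.6%, and the 16 genes of single ganglion cell types to 132.2%. Of the 783.9 CPM in that last sum in WT replicate 1, Pvalb held 323.6 CPM and Spp1 held 137.7 CPM. The medians of single tested genes were 23.1% for the 10, 56.6% for the further genes, 77.2% for the single-type genes and 69.2% for rod markers, so that the single-type genes were no lower than rod markers. Gad1, the GABA-synthesising enzyme of amacrine cells, was at 182.9 CPM against 183.1 to 266.4 CPM, and Calb2, which ganglion cells express too, at 76.1 against 162.9 to 230.2 CPM. Gnat1, the transducin subunit of rods, was at 6688 CPM against 7255 to 10474 CPM. Divided by the summed amacrine cell markers, all 10 ganglion cell genes were still lowest in WT replicate 1, at 16.2% to 88.1% of the other libraries. Divided by the summed rod markers, 9 of the 10 were, the exception being Rbpms. None of the amacrine, horizontal or rod markers was called between genotypes, and the median log2 fold changes of the 3 lists were 0.09, 0.11 and 0.10, and 0.05, 0.07 and 0.01 without WT replicate 1.

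Glial and non-neuronal markers moved in both directions in the same library. The 6 oligodendrocyte markers, which report the myelinated optic nerve, were all lowest in WT replicate 1, and summed to 939.0 CPM against 1405.4 to 3278.9 CPM. Gfap, raised in reactive astrocytes and Müller glia, was at 602.6 CPM against 145.4 to 254.9 CPM, and its log2 fold change between genotypes was -0.61 (unadjusted p 0.0269, adjusted p 1.00, edgeR likelihood-ratio test) and -0.22 without that library. The 7 tested adipocyte markers were all highest there, with a sum of 482.5 CPM against 26.0 to 277.9 CPM. Skeletal muscle markers summed to 7487 CPM against 754.4 to 7290 CPM, and fibroblast markers to 2158 CPM against 737.7 to 3711 CPM. Outside the lists, and chosen after the values were seen, Krt12, a keratin of the corneal epithelium, was at 4.26 CPM against 405.7 to 3514 CPM. C3, the complement component, was at 193.5 CPM against 6.53 to 28.2 CPM, and C1qa, a complement gene of microglia, at 47.5 CPM against 13.5 to 19.2 CPM. The part of these tissues in the low ganglion cell values was not tested, and the sources used here do not say whether this eye was handled differently.

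**Figure D3:**
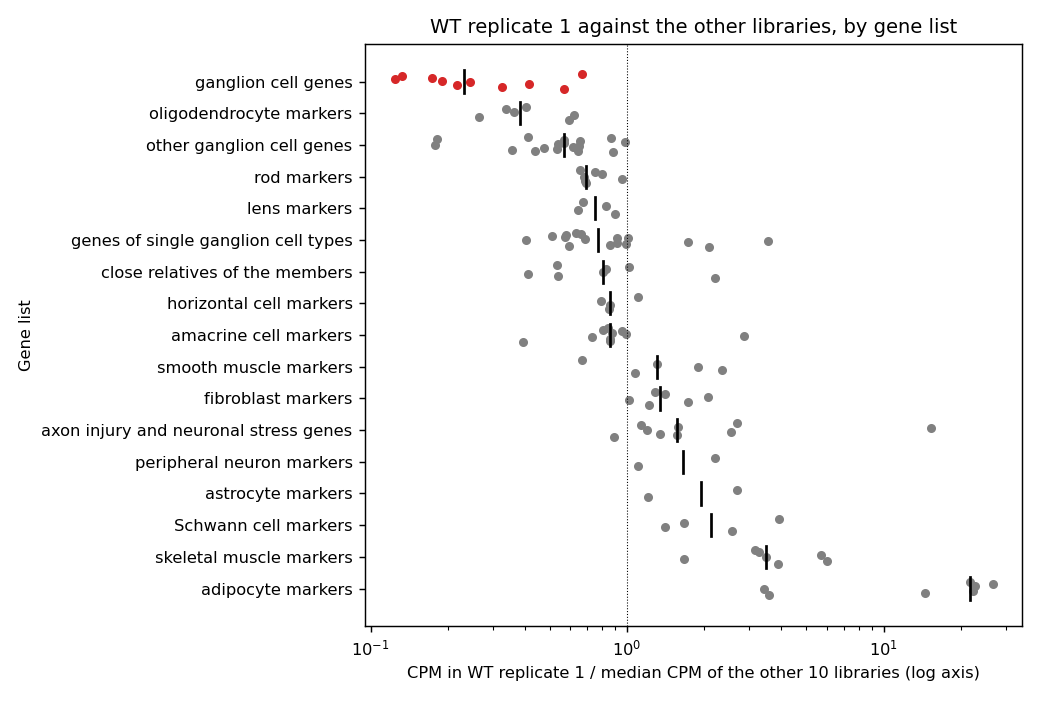
CPM in WT replicate 1 divided by the median CPM of the other 10 libraries, on a log axis, for every tested gene of each list, with the list median as a bar. The ganglion cell genes have a median of 23.1% of the other libraries, oligodendrocyte markers 38.4%, amacrine cell markers 85.9% and astrocyte markers 194.3%.

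Close relatives of the 10 genes were followed beside them. None of 7 was called, their median log2 fold change was 0.18 (0.09 without WT replicate 1), and 4 were lowest in WT replicate 1. Slc17a7, the glutamate transporter of photoreceptors and bipolar cells, was at 864.0 CPM in WT replicate 1 against 864.8 to 1279 CPM, or close to the lowest other library. Sncb, beta-synuclein, was at 223.3 against 182.7 to 302.5 CPM, inside their range, unlike Sncg. Prph, a neurofilament relative of peripheral neurons, was at 5.18 against 1.92 to 2.99 CPM.

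Among the other 10 libraries the ganglion cell genes varied less. The highest library exceeded the lowest by 1.29 times for Rbpms and by 2.18 times for Pou4f2, with a median of 1.52 times. Divided by the summed amacrine cell markers, this spread fell to a median of 1.23 times, and Nefl then varied by 1.104 times. Divided by the summed rod markers the median was 1.40 times. The 10 genes and the amacrine cell markers were both highest in KO replicate 5.

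**Figure D4:**
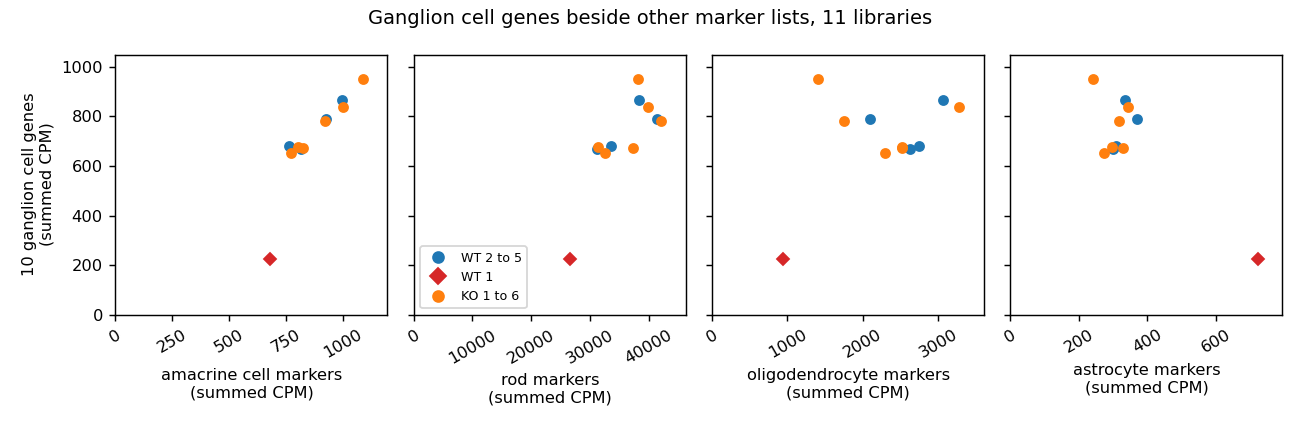
Summed CPM of the 10 ganglion cell genes in each of the 11 libraries against the summed CPM of amacrine cell, rod, oligodendrocyte and astrocyte markers. WT replicate 1, at 223.4 CPM, is the lowest point in every panel. In the amacrine cell panel it is also the leftmost point, with 681.4 CPM of amacrine cell markers. In the astrocyte panel it lies at the far right, with 722.8 CPM.

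Levels were compared between genes on the FPKM scale, which is per length. The order of the medians over 11 libraries was Nefl (84.0 FPKM), Sncg (62.8), Thy1 (60.9), Nefm (30.6), Nefh (17.5), Rbpms (15.3), Slc17a6 (9.57), Pou4f1 (6.10), Pou4f2 (1.64) and Pou4f3 (1.33). Sncg and Thy1 did not differ in order, since Sncg was above Thy1 in 5 of the 11 libraries. Thy1 was above Nefm, Rbpms above Slc17a6, Slc17a6 above Pou4f1, Pou4f1 above Pou4f2 and Pou4f2 above Pou4f3 in all 11. Ranges over the other 10 libraries did not overlap between Thy1 and Nefm or between Pou4f1 and Pou4f2. In WT replicate 1 the order changed, with Thy1 at 36.9 FPKM and Sncg at 20.5 FPKM above Nefl at 17.5 FPKM. Rbpms at 11.97 FPKM was then above Nefm and Nefh, both at 7.56 FPKM.

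Patterns across libraries were compared by Pearson's r of log2 CPM with 11320 or 11321 genes of at least 10 CPM on average. Over all 11 libraries the gene most like Pou4f1 was Nefl (r = 0.995), the gene most like Nefl was Nefm (r = 0.996), and those most like Slc17a6 were Nefl, Sncg and Nefm (r = 0.99 each). Pou4f2 was most like Cplx1, a synaptic complexin (r = 0.99), Pou4f3 most like Chrna6 (r = 0.99), Sncg most like Vamp1 (r = 0.99), Nefh most like Elmo1 (r = 0.98), Thy1 most like Cpne9 (r = 0.98) and Rbpms most like Nell2 (r = 0.97). WT replicate 1 is the far point in each of these. Over the other 10 libraries the closest gene was the same for 0 of the 10, and 0 of the 30 closest genes were shared. Nefl was then closest to Ina, the internexin that joins neurofilaments (r = 0.99), and Pou4f1 to Vps18 (r = 0.99). The points share libraries and their tissue composition, and these values are descriptions.

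Some of the 10 genes are made by other cells, and 8 relations with marker lists were computed across the 11 libraries, with 100000 permutations each and Benjamini-Hochberg adjustment over the 8. Sncg, which fat also expresses, was lower where adipocyte markers were higher (Pearson's r = -0.73, Spearman's ρ = -0.75, permutation p 0.00112 and 0.0095, adjusted 0.00576 and 0.038). Without the 2 farthest libraries r was -0.83, within the 6 libraries named by age it was -0.95, and without WT replicate 1 it was -0.71 (permutation p 0.0247, adjusted 0.0647). Thy1 was lower where fibroblast markers were higher (r = -0.60, ρ = -0.73, permutation p 0.0435 and 0.0142, adjusted 0.0869 and 0.038), with r = -0.47 without the 2 farthest libraries, -0.83 within the series named by age and -0.81 without WT replicate 1 (permutation p 0.00558, adjusted 0.0223). Neither r was positive. CPM are shares of a mixed tissue, and the part of fat or fibroblasts in the level of either gene was not tested.

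Slc17a6 and Pou4f2 were higher where rod markers were higher. For Slc17a6 r was 0.78 and ρ 0.79 (permutation p 0.00144 and 0.00581, adjusted 0.00576 and 0.038), and r was 0.60 without the 2 farthest libraries and 0.61 in the series named by age. For Pou4f2 r was 0.79 and ρ 0.65 (permutation p 0.00278 and 0.0328, adjusted 0.00741 and 0.0656), and r was 0.60 and 0.46 in those subsets. Without WT replicate 1 neither relation passed after adjustment, with r = 0.69 for Slc17a6 (permutation p 0.0324, adjusted 0.0647) and r = 0.61 for Pou4f2 (permutation p 0.0603, adjusted 0.0966). Nefh and peripheral neuron markers turned from r = -0.31 and ρ = 0.38 (permutation p 0.336 and 0.248, adjusted 0.384 and 0.397) to r = 0.92 without the 2 farthest libraries, and r was 0.83 in the series named by age. Without WT replicate 1 this relation passed after adjustment, with r = 0.81 and ρ = 0.84 (permutation p 0.00435 and 0.00392, adjusted 0.0223 and 0.0314). The peripheral neuron sum is small, 6.10 to 15.0 CPM, with 2 of its 6 genes past the filter and its defining gene Scn10a at most at 0.0432 CPM. Nefl and oligodendrocyte markers had r = 0.67 and ρ = 0.20 (permutation p 0.0727 and 0.559, adjusted 0.105 and 0.639), r = 0.14 without the 2 farthest libraries and r = -0.29 in the series named by age, so that this relation rested on those libraries. Rbpms with smooth muscle markers (r = -0.23, ρ = -0.30, permutation p 0.492 and 0.371, adjusted 0.492 and 0.494, r = -0.31 without the 2 farthest, -0.34 by age) showed no relation past the test. Thy1 with T cell markers, which summed to at most 2.34 CPM, had r = -0.58 and ρ = -0.03 (permutation p 0.0784 and 0.946, adjusted 0.105 and 0.946), r = 0.21 without the 2 farthest and 0.05 by age. The series named by mouse number held 5 libraries, too few for its own value.

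Across the remaining lists 0 genes were called between genotypes. Unadjusted p under 0.05 was reached by 3 of 7 adipocyte markers, Retn (log2 fold change -0.87), Cfd (-2.12) and Lipe (-0.78), and by Bfsp1 (-3.99) of 4 lens markers. Without WT replicate 1 the values were -0.41, -1.24, -0.44 and -4.31, and 1 adipocyte and 1 lens marker reached it. The adipocyte median was -1.94, and -1.21 without that library. Although the lens had been removed, its markers reached a sum of 60791 CPM in WT replicate 4 and of 18441 CPM in KO replicate 3, with 4.26 to 2439 CPM elsewhere. Median log2 fold changes were -0.31 for 6 fibroblast, -0.15 for 5 smooth muscle, -0.54 for 7 skeletal muscle, -0.07 for 2 of 6 peripheral neuron, -0.01 for 6 oligodendrocyte and -0.29 for 4 Schwann cell markers, and none of 5 T cell markers passed the filter. Without WT replicate 1 these medians were -0.23, -0.08, -0.18, 0.11, -0.22 and -0.01, so that the peripheral neuron median changed sign.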

How the data were processed

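Total RNA of whole eyes without lens and cornea was sequenced as 100-nt pairs (TruSeq, Illumina HiSeq). The authors assigned reads to Gencode M4 genes with RSEM 1.2.19 and deposited, per library, expected counts, which need not be whole, and FPKM, which the authors' RSEM run scales by length and depth. Expected counts were rounded. Genes that reached 1 CPM in 5 or more libraries (15767 of 38393, all 10 ganglion cell genes among them) were tested with edgeR 4.0.16 (TMM, likelihood-ratio test, Benjamini-Hochberg, adjusted p under 0.1) on R 4.3.3. DESeq2 1.42.0, limma 3.58.1 on log2(FPKM + 0.1), other scalings, filters and series were alternatives. Log2 CPM used a prior count of 2. Exact permutation tests were two-sided. The edgeR steps were tested on simulated data. Symbols were matched to gene identifiers through reference tables, with 95.4% of identifiers given a symbol, and positions are of Gencode M21 on GRCm38. The library series were found by matching each library's counts to the study's supplementary table, and were used only as a technical series.

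The 10 genes and all marker lists were chosen with earlier results of these data known. Named are all 10 genes, from each other list the genes with an unadjusted p under 0.05 or otherwise the 2 of highest mean CPM, the 3 genes most alike to each, and Xist and Trpm1. Further list genes (Isl2, Nrn1, Gap43, Atoh7, Opn4, Kcng4, Atf3, Ddit3, Bbc3, Bcl2l11, Sprr1a, Ecel1, Gal, Sox11, Prph and Scn10a) were named after their values were seen. Krt12, C3 and C1qa stand outside the lists and were chosen in the same way. Some list genes are not reported here by name. Libraries are biological replicates by the study's account, and p-values set differences or relations against the variation between these libraries. None separates genotype from sex, and the library series is accounted for only where stated.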

Additional observations from a re-analysis of the deposited data

Results flagged for a closer look

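Within each genotype, the lowest or highest library was compared with its nearest neighbour in log2 CPM for the 10 genes and for the sums of the other lists. In 12 of 54 groups its gap exceeded 0.71 (5 libraries) or 0.625 (6 libraries) of the group's range, where about 5% of groups would do so without any cause. Groups share libraries, so the 12 are not independent. WT replicate 1 was the lowest WT library for Pou4f1 (2.02 CPM), Pou4f2 (1.03 CPM), Pou4f3 (0.390 CPM), Nefl (58.1 CPM), Nefm (24.8 CPM), Nefh (29.8 CPM), Slc17a6 (9.22 CPM), Sncg (16.5 CPM) and the sum of the further ganglion cell genes (411.7 CPM). It was the highest WT library for the sum of the astrocyte markers (722.8 CPM). Thy1 and Rbpms did not pass this limit. KO replicate 1 was the highest KO library for adipocyte markers (239.9 CPM), and WT replicate 4 the highest WT library for lens markers (60791 CPM). What set WT replicate 1 apart was not tested.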

How the results depend on the processing

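No ganglion cell gene was called under any alternative, and 258 of 260 refitted log2 fold changes kept their sign. Pou4f1 turned to -0.0231 without WT replicate 1 (range -0.0231 to 0.392 when 1 library was left out) and to -0.0227 there with the quasi-likelihood test. In the exact permutation tests, without that library, the log2 difference turned to -0.000609 for Rbpms (range -0.000609 to 0.172) and to -0.0295 for Pou4f1 (-0.0295 to 0.732), and Rbpms turned to -0.00337 relative to rod markers. Relative to amacrine markers and without WT replicate 1, an alternative chosen after seeing the data, 7 of the 10 turned, to -0.0413 (Rbpms), -0.0704 (Pou4f1), -0.0281 (Nefl), -0.034 (Nefm), -0.0344 (Nefh), -0.0263 (Slc17a6) and -0.026 (Thy1). There Pou4f1 reached an exact permutation p of 0.0429, lower in KO. Sncg reached an exact permutation p of 0.0476 without WT replicate 3, higher in KO. The cause was not tested. The number of genes called in all was 1 in the main comparison. It was 0 with the quasi-likelihood test (330 genes had an unadjusted p under 0.05 in the likelihood-ratio test), with limma at both pseudocounts and with the quasi-likelihood test without WT replicate 1. It was 2 with DESeq2, DESeq2 size factors or any gene with 1 count, 10 with the series as covariate, 7 and 38 within the series named by mouse number and age, and 1 to 11 when 1 library was left out. Whether replicate numbers pair the samples is not settled by these values. Same-numbered deviations correlated from -0.33 to 0.63, and 3 of 5 WT libraries matched their own number best. The lowest value was for number 3, whose WT library is in the series named by age and whose KO library is in the other. The replicate block, without KO replicate 6, called 10 genes and 0 of the ganglion cell genes. Leaving out 1 library moved r from -0.84 to -0.71 (Sncg and adipocyte), -0.81 to -0.50 (Thy1 and fibroblast), -0.68 to 0.27 (Thy1 and T cell), -0.34 to -0.15 (Rbpms and smooth muscle), -0.32 to 0.86 (Nefl and oligodendrocyte), -0.53 to 0.81 (Nefh and peripheral neuron), 0.69 to 0.83 (Slc17a6 and rod) and 0.61 to 0.83 (Pou4f2 and rod). At 0.5 CPM 16838 genes were tested. Depth limits Pou4f3 most, with 11 expected counts in WT replicate 1.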
